A study of Mus musculus with 8 samples.

Results

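The genes described here are 39 mouse genes of the antiviral response to type I interferon, from the cytosolic RNA sensors to the proteins that hold back viral replication. They were taken from a list of gene symbols that was drawn up when it was already known that they differed between the groups on day 1. Each gene was represented by 1 probe set, the one with the highest mean signal over the 8 arrays among those annotated to that gene alone. Such a probe set existed for 37 of the 39 genes, out of 63 probe sets annotated to single members. Isg15 and Ifi44 had none and were not analysed here. All 37 passed a filter on dim signals, which left 13854 genes in all: 28 members lay at or above the array median on all 8 arrays, and Trim30d passed only through the PF68 arrays of day 1.

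The samples came from lobe 1 of the right lung. The animals were adult male ICR mice, an outbred stock, aged 5 to 6 weeks. Under pentobarbital anaesthesia and through a cut in the neck, each animal was instilled once into the trachea. SWCNT animals were given 0.5 mg of single-walled carbon nanotubes suspended in 50 µl of 0.1% Pluronic F-68, while PF68 animals were given this surfactant solution alone. The 4 groups were SWCNT day 1, PF68 day 1, SWCNT day 7 and PF68 day 7, with 2 single-colour Affymetrix arrays each. The labels call these arrays biological replicates without tying them to animals, so the errors and p-values measure only the spread between arrays, which may be technical. Lungs without any instillation were not analysed here, so the surfactant and the surgery are shared by all groups.

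Type I interferons are secreted when a cell senses foreign nucleic acid. They bind the receptor formed by Ifnar1 and Ifnar2, whose kinases Jak1 and Tyk2 activate Stat2. Stat2 acts with Irf9 in a transcription factor that binds the interferon-stimulated response element and switches on a large set of genes. In the lung this response is best known from respiratory virus infection, and many of its products are themselves sensors and transcription factors of the same pathway.

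In outline, PF68 lungs of day 1 stood above the other 3 groups. The median log2 level of the 37 members was 1.23 to 1.47 on the SWCNT arrays of day 1, against 2.82 to 2.87 on the PF68 arrays of that day. On day 7 it was 1.35 to 1.42 on the SWCNT arrays and 1.5 to 1.57 on the PF68 arrays. For 35 members both PF68 arrays of day 1 lay above all 6 other arrays, an arrangement that 6.68% of all genes showed. Oas3 and Ifi35 were the exceptions. In whole lung lobes, fewer cells of a type and less RNA per cell cannot be told apart.

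**Figure D1:**
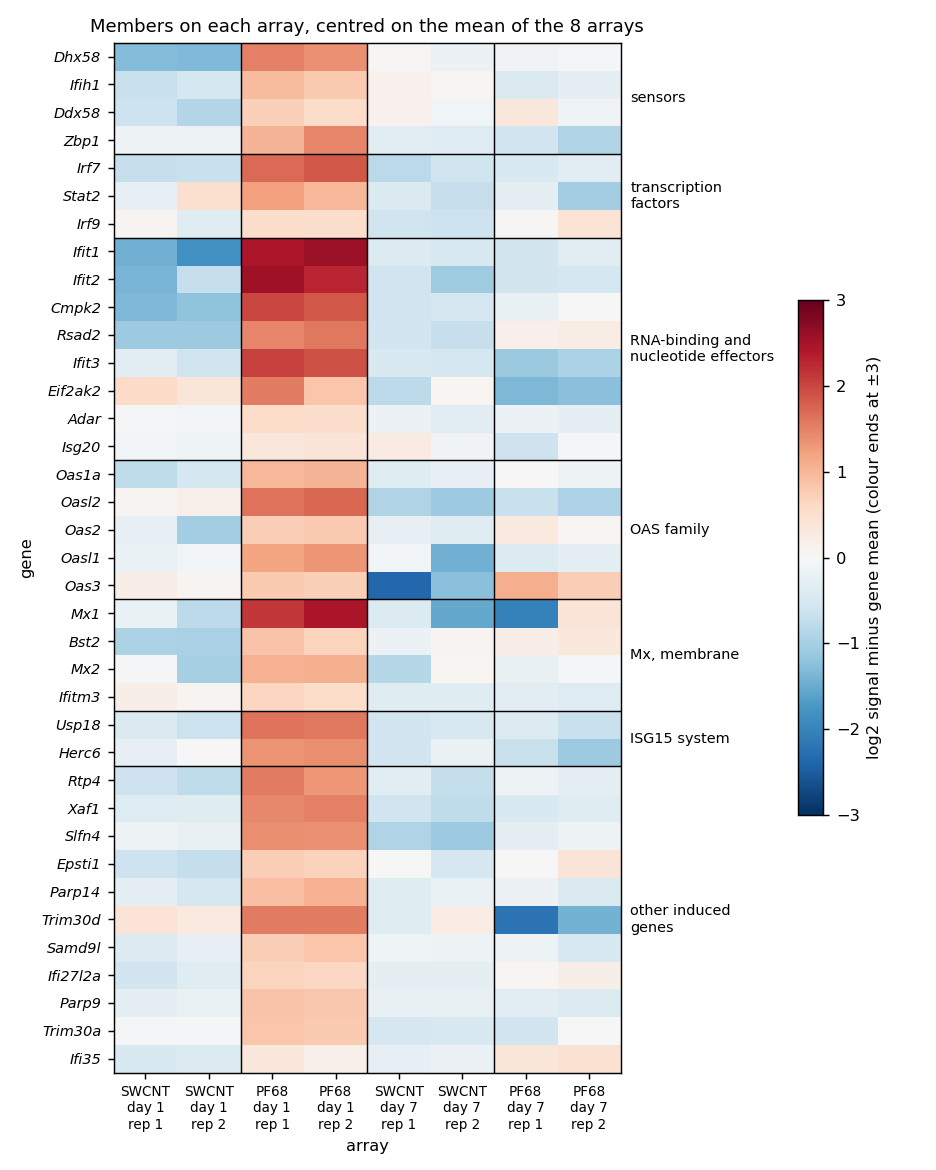
Log2 signal of the 37 members (rows, grouped by role) on each of the 8 arrays (columns), minus the gene's mean over the 8 arrays; colour runs from -3 (blue) to 3 (red). The PF68 arrays of day 1 are red for nearly all genes, with both arrays above all others in 35 of 37 members.

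The promoters of 5 members are printed because they carry the sequence that this response is read from and because these genes span the range of values below, from the largest day 1 difference (Ifit1) to a member that differed on day 7 (Oas3). The sequences are from RefSeq, assembly GRCm38.p6, and run 5′ to 3′ on the gene's strand up to the base before the annotated start. Capitals mark the core of the response element, GAAANNGAAA, on either strand.
Ifit1, chr19:34640739-34640888, plus strand: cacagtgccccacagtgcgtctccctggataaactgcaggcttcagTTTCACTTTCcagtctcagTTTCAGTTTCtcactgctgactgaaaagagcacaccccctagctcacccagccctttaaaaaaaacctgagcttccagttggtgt
Ifit3, chr19:34583349-34583528, plus strand: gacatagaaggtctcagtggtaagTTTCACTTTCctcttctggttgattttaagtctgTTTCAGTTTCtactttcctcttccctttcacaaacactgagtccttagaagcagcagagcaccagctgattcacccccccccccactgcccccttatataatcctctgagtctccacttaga
Rsad2, chr12:26456453-26456602, minus strand: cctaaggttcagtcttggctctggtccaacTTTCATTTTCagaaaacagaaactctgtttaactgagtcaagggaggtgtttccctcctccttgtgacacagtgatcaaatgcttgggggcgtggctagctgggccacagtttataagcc
Bst2, chr8:71537473-71537632, minus strand: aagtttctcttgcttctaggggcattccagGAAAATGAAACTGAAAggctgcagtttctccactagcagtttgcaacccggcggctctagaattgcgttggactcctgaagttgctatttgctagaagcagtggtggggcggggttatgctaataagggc
Oas3, chr5:120777660-120777769, minus strand: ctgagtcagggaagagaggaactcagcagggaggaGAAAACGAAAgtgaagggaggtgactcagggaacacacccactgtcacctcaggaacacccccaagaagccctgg

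In Ifit1 the cores began 104 and 85 bases upstream of the start, and in Ifit3 at 156 and 122 bases. Rsad2 had 1 core at 120 bases and Oas3 had 1 at 75 bases. The Bst2 cores, at 130 and 124 bases, overlap each other, and the first overlaps a match to TTCNNNGAA, the core of the gamma-activated site. Promoter windows of 250 bases before to 50 bases after a start were matched to 29 of the 39 members, and 14 of these (48.3%) held GAAANNGAAA on either strand. It was present in 3.44% of the 32851 windows of all genes, or 3.99% of the 27025 genes. TTCNNNGAA, which reads the same on both strands, was found in 8 of the 29 members (27.6%). It was present in 8.3% of all windows, or 9.55% of all genes. The median day 1 difference was -1.39 log2 units in the 13 measured members with GAAANNGAAA and -1.44 in the 14 measured members whose window lacked it. The ranges overlapped, from -4.14 to -0.47 with the motif and from -3.46 to -0.47 without it, and no test was made, since the members were chosen on that difference. These matches describe letters and not binding.

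On day 1 all 37 measured members had lower signals in SWCNT lungs than in PF68 lungs, and in each of them both SWCNT arrays lay below both PF68 arrays. This arrangement held for 28.6% of all genes. The differences ran from -4.14 (Ifit1) to -0.47 (Ifitm3 and Isg20), with a median of -1.41 log2 units against -0.02 over all genes. In the limma fit 24 members were called lower at an adjusted p below 0.05 and none higher, where 1.23% of all genes were called lower and 0.931% higher. Because the members were chosen with this contrast known, the counts are a description, no p-value is given for them, and the differences below are given with their standard errors (SE, n = 2 arrays per group).

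Among the sensors, all 4 were called lower on day 1. Dhx58 encodes LGP2, a helicase that modulates the signalling of the other RNA sensors. Its log2 levels were -1.41 and -1.44 in SWCNT lungs of day 1, against 1.39 and 1.27 in PF68 lungs. Its SWCNT arrays lay below the array median of -0.63 and its PF68 arrays above it. That is a difference of -2.76 ± 0.12, or 6.76-fold lower; all folds take the deposited values as log2, which the sources used here do not state. Ifih1 and Ddx58, the helicases that detect viral RNA in the cytosol, differed by -1.48 ± 0.12 and -1.39 ± 0.20. Zbp1, a sensor of Z-form nucleic acid, differed by -1.38 ± 0.19.

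The transcription factors differed less evenly. Irf7, the factor that amplifies the interferon response, had log2 levels of 0.88 and 0.91 in SWCNT lungs of day 1, against 3.29 and 3.44 in PF68 lungs. The 2 arrays of each group were close together and the groups were far apart, with a difference of -2.47 ± 0.13 (5.53-fold lower). Stat2 and Irf9, partners in the factor that binds the response element, differed by -0.98 ± 0.34 and -0.67 ± 0.20 and were not called. Their SWCNT arrays spread widely on day 1, at log2 levels of -0.16 and 0.57 for Stat2 and of 1.86 and 1.41 for Irf9.

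The effectors that bind RNA or act on nucleotides held the largest differences of day 1. Ifit1, which binds viral RNA that lacks the host's cap marks, had log2 levels of 0.97 and 0.59 in SWCNT lungs of day 1, against 4.84 and 5.01 in PF68 lungs. The groups were separated by far more than their arrays were, with a difference of -4.14 ± 0.17 (17.7-fold lower). Ifit2, a member of the same tetratricopeptide family, had log2 levels of 0.52 and 1.23 in SWCNT lungs, against 4.46 and 4.21 in PF68 lungs. Its SWCNT arrays differed more from each other than those of Ifit1, and the difference was -3.46 ± 0.27 (11.0-fold lower). Ifit3, whose human counterpart stabilises IFIT1, had log2 levels of 3.16 and 2.88 in SWCNT lungs, against 5.52 and 5.39 in PF68 lungs. The groups did not overlap and differed by -2.43 ± 0.14 (5.41-fold lower).

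Rsad2 encodes viperin, which makes a chain-terminating nucleotide. Its log2 levels were 2.49 and 2.51 in SWCNT lungs of day 1, against 5.06 and 5.18 in PF68 lungs. Both pairs of arrays were tight, and the difference was -2.62 ± 0.11 (6.13-fold lower). Cmpk2, a mitochondrial nucleotide kinase encoded beside Rsad2, had log2 levels of -0.05 and 0.08 in SWCNT lungs, against 3.31 and 3.15 in PF68 lungs. The groups were again apart, by -3.21 ± 0.13 (9.26-fold lower). Eif2ak2, the kinase that stops translation on double-stranded RNA, differed by -0.72 ± 0.34 and was not called. Adar, which edits adenosines in double-stranded RNA, differed by -0.62 ± 0.11 and was not called either. Isg20, an exonuclease, was among the members with the smallest differences: its log2 levels were 2.40 and 2.35 in SWCNT lungs, against 2.82 and 2.87 in PF68 lungs. The groups did not overlap, and the difference of -0.47 ± 0.22 was not called.

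The oligoadenylate synthetases make the second messenger that activates RNase L, an activity that Oasl1 lacks. Oas1a had log2 levels of 0.95 and 1.19 in SWCNT lungs of day 1, against 2.71 and 2.73 in PF68 lungs. All arrays of one group lay below those of the other, with a difference of -1.65 ± 0.13 (3.14-fold lower). Oasl2 differed by -1.56 ± 0.14 and was the other called member of this family. Oas2 and Oasl1 differed by -1.41 ± 0.26 and -1.39 ± 0.41 without being called. Oas3 differed least, at log2 levels of -0.28 and -0.39 in SWCNT lungs, against 0.30 and 0.24 in PF68 lungs. The groups lay apart, and the difference was -0.61 ± 0.36.

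Of the Mx GTPases and the membrane-bound restriction factors, only Bst2 was called lower on day 1. Bst2, or tetherin, holds budding virions at the cell surface. Its log2 levels were 1.73 and 1.72 in SWCNT lungs, against 3.53 and 3.34 in PF68 lungs. The groups were apart by -1.71 ± 0.14 (3.28-fold lower). Mx1, a GTPase that blocks influenza viruses in mice, had log2 levels of -0.96 and -1.53 in SWCNT lungs, against 1.38 and 1.69 in PF68 lungs. Only the PF68 arrays of day 1 had both values above the array median, and the difference of -2.78 ± 0.81 was not called. Its PF68 arrays of day 7, which enter this SE, lay far apart at log2 levels of -2.78 and -0.37. Mx2 differed by -1.57 ± 0.40. Ifitm3, which blocks viral entry from endosomes, had log2 levels of 6.99 and 6.89 in SWCNT lungs, against 7.45 and 7.36 in PF68 lungs. The groups did not overlap, and the difference of -0.47 ± 0.10 was the smallest of all members and not called.

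In the ISG15 system, Usp18 removes the ubiquitin-like protein ISG15 from its targets and also dampens the interferon receptor. Its log2 levels were 1.49 and 1.26 in SWCNT lungs of day 1, against 3.55 and 3.5 in PF68 lungs. The PF68 arrays lay above both SWCNT arrays, and the difference was -2.15 ± 0.14 (4.44-fold lower). Herc6, the ligase that attaches ISG15 in mice, differed by -1.49 ± 0.20, and both genes were called.

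Of the other 11 induced genes, 9 were called lower on day 1. Rtp4, a chaperone of receptors at the membrane, had log2 levels of 2.04 and 1.91 in SWCNT lungs, against 4.21 and 3.96 in PF68 lungs. No array of one group reached the other, and the difference was -2.11 ± 0.18 (4.31-fold lower). Xaf1, a partner of the apoptosis inhibitor XIAP, had log2 levels of 1.85 and 1.87 in SWCNT lungs, against 3.67 and 3.75 in PF68 lungs. It was lower on both SWCNT arrays, by -1.85 ± 0.11 on the log2 scale (3.61-fold). Slfn4, a Schlafen gene of myeloid cells, had log2 levels of 0.58 and 0.49 in SWCNT lungs, against 2.12 and 2.09 in PF68 lungs. These groups were apart by -1.57 ± 0.12 (2.97-fold lower). The remaining 8 differed by -1.39 (Epsti1) to -0.68 (Ifi35), and of these Trim30a at -0.86 ± 0.20 and Trim30d at -1.19 ± 0.31 were the 2 not called.

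**Figure D2:**
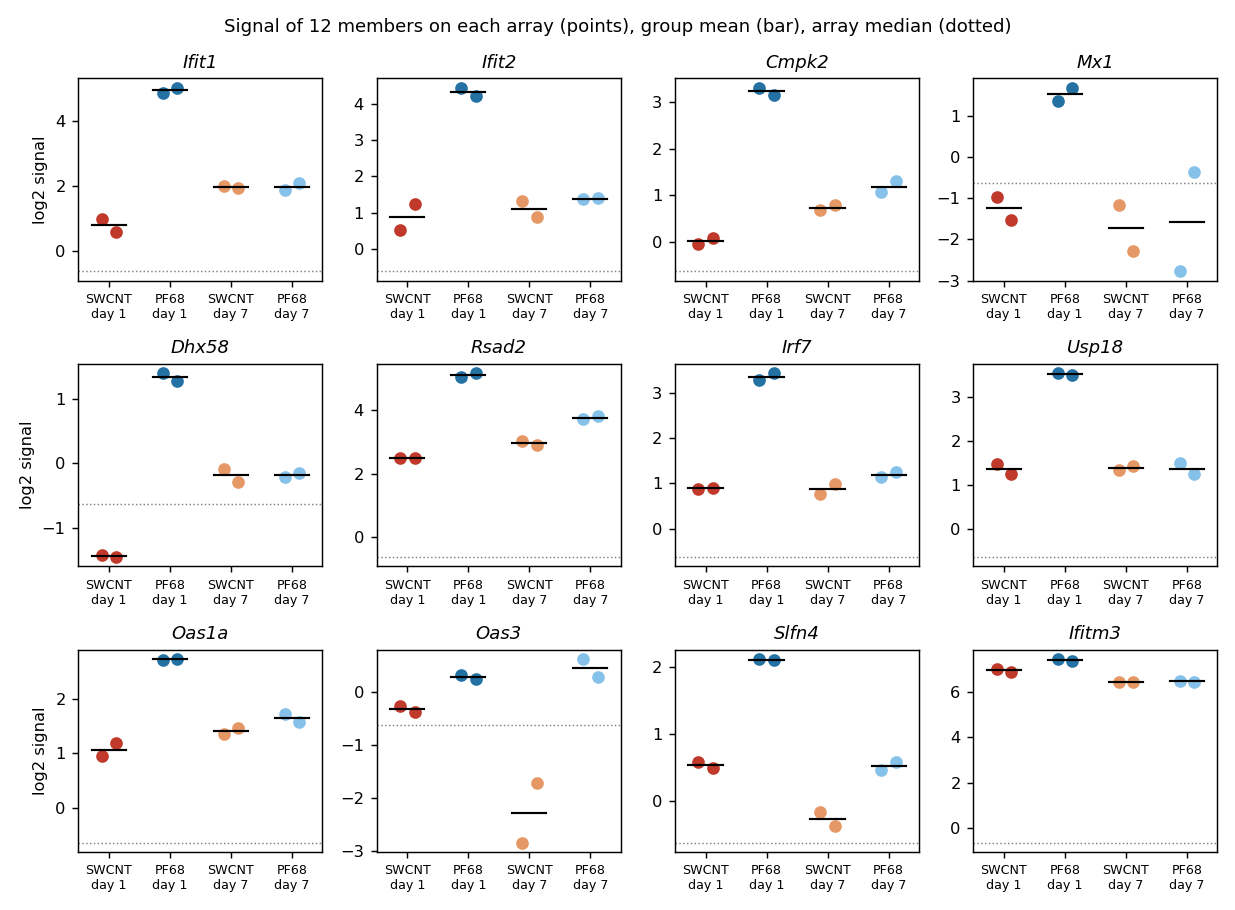
Log2 signal of 12 members on each array (points), with the group mean (bar) and the array median of -0.63 (dotted); the vertical scale differs between panels. In 11 panels both PF68 arrays of day 1 lie above all others, while Oas3 has its lowest values, -2.84 and -1.72, on the SWCNT arrays of day 7.

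Other probe sets of the same genes were available for 16 members. On day 1, 25 of these 26 probe sets were also lower in SWCNT lungs, and all 19 that passed the filter were. Probe sets of 1 gene measure the same RNA and are not replicates of a condition. With any 1 array left out, fewer than these 24 members were called lower on day 1, and so were fewer of all genes. The median difference stayed between -1.47 and -1.38.

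On day 7 the comparison of SWCNT with PF68 lungs was tested. The members were chosen with the contrast of the earlier day known, and with earlier results of these data known. The fit also takes its variance from the arrays of both days. The day 7 p-values of the members are therefore not independent evidence. The median difference was -0.20 log2 units, against 0.02 over all genes, and 3 of the 37 members were called lower: Rsad2, Slfn4 and Oas3. None was called higher, and 34 were not called. Of all genes, 0.78% were called lower and 1.4% higher on this day. At an unadjusted p below 0.05, 11 members differed in the same limma fit, 7 lower and 4 higher. The share of all genes at that unadjusted threshold is not given here, so whether 11 exceeds it cannot be read from this count. Both SWCNT arrays lay below both PF68 arrays in 14 members and above them in 7, and the groups overlapped in 16, where 25% of all genes were lower and 28.2% higher in this sense.

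Oas3 showed the largest of these differences. Its log2 levels were -2.84 and -1.72 in SWCNT lungs of day 7, against 0.62 and 0.27 in PF68 lungs. Both SWCNT arrays lay below the array median, so that the lower group was measured in the dim range. Oas3 was lower in SWCNT than in PF68 lungs by 2.72 ± 0.36 on the log2 scale (6.6-fold, limma adjusted p = 0.036). Rsad2 had log2 levels of 3.02 and 2.90 in SWCNT lungs of day 7, against 3.73 and 3.82 in PF68 lungs. The groups were separated by more than their arrays, and the difference was -0.81 ± 0.11 (1.76-fold lower; limma, adjusted p = 0.039). Its other probe sets, both dimmer, pointed the other way on day 7 at 0.42 and 1.69 log2 units, and the mean of its probe sets gave 0.43 (limma, adjusted p = 0.388). Slfn4 had log2 levels of -0.17 and -0.38 in SWCNT lungs of day 7, against 0.46 and 0.57 in PF68 lungs. They did not overlap and differed by -0.79 ± 0.12 (1.73-fold lower; limma, adjusted p = 0.043). Neutrophil markers were lower on the same arrays: their log2 summed level was 7.23 to 7.24 in SWCNT lungs of day 7, against 8.30 in PF68 lungs, with a median difference of -1.16, 4 of 9 called lower and 1 higher. Their part in the result was not tested.

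These 3 calls rested on all 8 arrays: each was lost when any 1 array was left out, as were most calls over all genes. The differences kept their sign, at -0.88 to -0.75 for Rsad2, -0.90 to -0.69 for Slfn4 and -3.28 to -2.16 for Oas3. Close to the threshold were Trim30d, at 1.74 ± 0.31 (limma, adjusted p = 0.053), and Ifi35, a protein that binds Nmi, at -0.62 ± 0.11 (limma, adjusted p = 0.054). Trim30d was below the array median on all arrays of day 7. Over all members, the further probe sets that passed the filter had the same sign as the chosen one in 10 of 19 cases on day 7, and the opposite sign in 9.

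Several members had day 7 differences near 0. Ifit1, the member with the largest difference on day 1, had log2 levels of 2.01 and 1.93 in SWCNT lungs of day 7, against 1.87 and 2.08 in PF68 lungs. These ranges overlapped, and the difference of -0.01 had a 95% interval of -0.43 to 0.40. Usp18 had log2 levels of 1.35 and 1.43 in SWCNT lungs, against 1.5 and 1.25 in PF68 lungs. The groups overlapped here too, at a difference of 0.01 with a 95% interval of -0.33 to 0.36. Dhx58 differed by -0.0031 with a 95% interval of -0.30 to 0.29, and Ifitm3 by -0.0037 with an interval of -0.26 to 0.25. For Mx1 the interval of -2.14 to 1.84 was too wide to exclude differences of several fold.

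Log2 levels of some further members on day 7 were as follows. Irf7 had 0.76 and 0.99 in SWCNT lungs, against 1.14 and 1.25 in PF68 lungs, which did not overlap and did not pass the test (difference -0.32; limma, adjusted p = 0.22). Ifit2 had 1.32 and 0.87 in SWCNT lungs and 1.38 and 1.39 in PF68 lungs, a difference of -0.29 within its own spread (limma, adjusted p = 0.569). Cmpk2 had 0.69 and 0.79 in SWCNT lungs and 1.07 and 1.30 in PF68 lungs, at a difference of -0.45 (limma, adjusted p = 0.125). By contrast Ifit3 lay higher on both SWCNT arrays of day 7, at 3.02 and 2.96, against 2.36 and 2.54 in PF68 lungs; this difference of 0.55 ± 0.14 did not pass either (limma, adjusted p = 0.10). Ifit2 and Ifit3, neighbours on chromosome 19, therefore had opposite signs on day 7, and the difference between them was not tested.

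**Figure D3:**
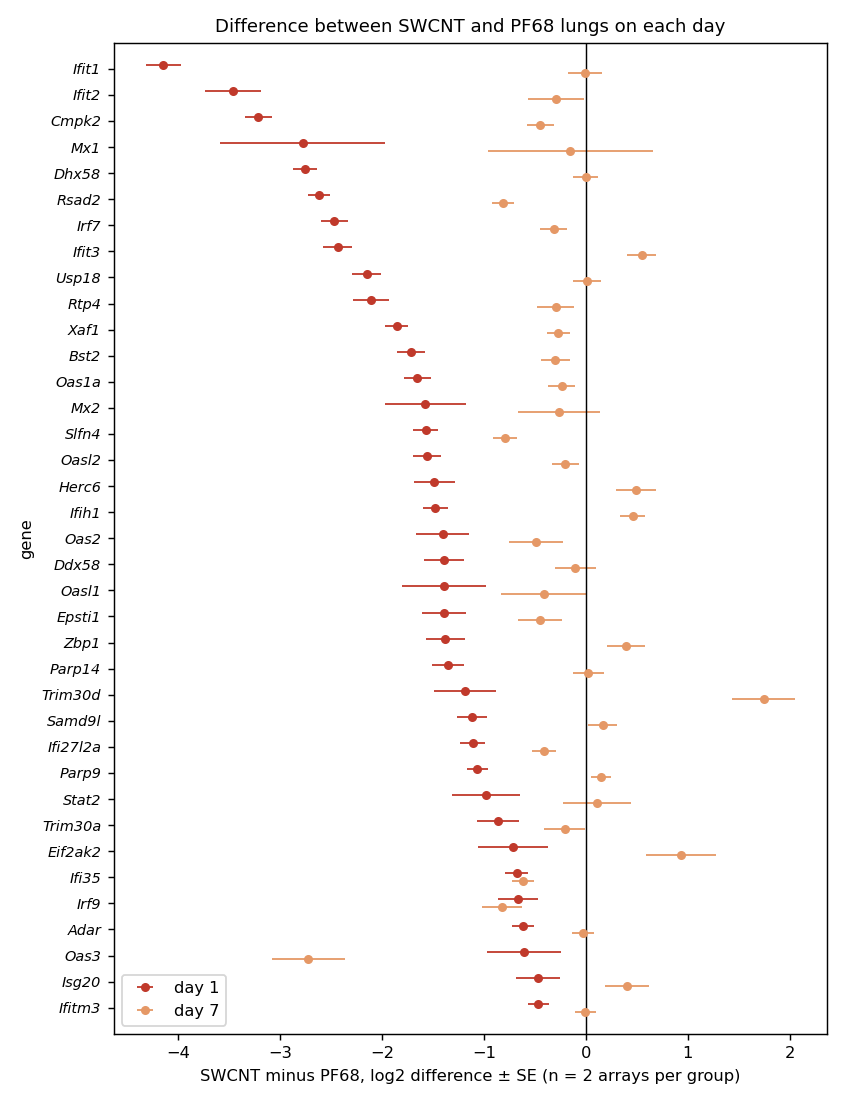
SWCNT minus PF68 difference of each of the 37 members on the log2 scale (points) with its standard error (lines, 2 arrays per group), on day 1 (dark) and day 7 (light), ordered by the day 1 difference. All day 1 points lie below 0, while the day 7 points have a median of -0.20 and only Rsad2, Slfn4 and Oas3 were called.

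Within PF68 lungs the members were lower on day 7 than on day 1. This comparison shares the PF68 arrays of day 1 with the one above and is a description. The median difference of day 7 minus day 1 was -1.34 log2 units against 0.04 over all genes, and in 35 of the 37 members both arrays of day 7 lay below both of day 1, as they did in 28.6% of all genes. Trim30d (-3.36 ± 0.31), Mx1 (-3.11 ± 0.81) and Ifit3 (-3.01 ± 0.14) had the largest differences. Trim30d, which passed the filter only through the PF68 arrays of day 1, was dim on the PF68 arrays of day 7, at log2 levels of -3.27 and -2.48. Ifit1 and Ifit2 followed, at -2.95 ± 0.17 and -2.95 ± 0.27. Oas3 and Ifi35 were the 2 members above 0, both at 0.17. The other probe sets of Ifi35, which also passed the filter, went the other way in PF68 lungs. Their mean log2 levels were 2.77 on day 1 against 2.30 on day 7, and 2.51 against 2.15.

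Within SWCNT lungs the members showed no common direction between the days. The median difference of day 7 minus day 1 was 0.02 log2 units against 0.09 over all genes. Both arrays of day 7 lay above both of day 1 in 12 members and below them in another 12, where 36.6% and 26.2% of all genes did so. Dhx58 (1.25), Ifit1 (1.18) and Bst2 (0.91) had the largest positive differences, and Oas3 (-1.94), Oasl2 (-1.10) and Eif2ak2 (-0.83) the largest negative ones. Of the 4 sensors, 3 were higher on both SWCNT arrays of day 7 than on those of day 1, and Zbp1 was lower.

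The lowest of the 4 group means was that of SWCNT day 1 in 18 members, SWCNT day 7 in 11 and PF68 day 7 in 8. In 11 members, among them Ifit1, Cmpk2, Rsad2, Dhx58 and Bst2, both SWCNT arrays of day 1 lay below all 6 others, as in 13.4% of all genes.

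Members that lie next to each other in the genome, with at most 1 protein-coding gene between them, formed 6 pairs. They were Rsad2 and Cmpk2 on chromosome 12, Parp14 and Parp9 on chromosome 16, Ifit2 and Ifit3 on chromosome 19, Oasl2 with Oasl1 and Oas2 with Oas3 on chromosome 5, and Trim30a and Trim30d on chromosome 7. On day 1 the partners of every pair were lower in SWCNT lungs. On day 7 Rsad2 and Cmpk2 both had negative differences, while Trim30a (-0.21) and Trim30d (1.74) had opposite ones and Oas3 (-2.72) lay far below Oas2 (-0.49). Parp9 and Parp14, which encode ADP-ribosyltransferase family proteins, differed by 0.15 and 0.02. No difference within a pair was tested.

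Upstream in the pathway, little was measurable of the interferons themselves. Of 10 interferon genes with a probe set, 7 did not pass the filter, including Ifnb1 and Ifng, and the 3 that passed were not called on either day, at day 1 differences from -1.92 to 0.64. Ifnb1, the interferon beta gene, had log2 levels of -1.99 and -1.63 in SWCNT lungs of day 1, against -1.28 and -0.68 in PF68 lungs. On day 7 it had -1.63 and -0.96 in SWCNT lungs, against -0.73 and -0.42 in PF68 lungs. All of these except PF68 replicate 2 of day 7 lie below the array median of -0.63. Ifng, the type II interferon, had log2 levels of -1.45 and -2.58 in SWCNT lungs of day 1, against -0.75 and -0.97 in PF68 lungs, all of them dim.

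The receptors and kinases did not pass the test on day 1 in any of 9 cases, with a median difference of -0.20 log2 units. This list and those of the next paragraph were drawn up with earlier results of these data known. Their p-values are therefore not independent evidence. In limma, Ifnar1 differed by -0.20 ± 0.17 (adjusted p = 0.592), Jak1 by -0.33 ± 0.10 (adjusted p = 0.173) and Tyk2 by -0.13 ± 0.19 (adjusted p = 0.769). On day 7 Ifnar2, the ligand-binding receptor chain, had log2 levels of 2.58 and 2.51 in SWCNT lungs, against 1.74 and 1.74 in PF68 lungs. The difference of 0.80 ± 0.13 passed the test (limma, adjusted p = 0.046), while on day 1 it was -0.44 ± 0.13 (adjusted p = 0.160).

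Of 13 genes that lead to the induction of interferon, none was called on day 1. Tlr7, the endosomal sensor of single-stranded RNA, had day 7 log2 levels of 0.28 and 0.41 in SWCNT lungs, against -0.79 and -1.17 in PF68 lungs. Its difference was 1.32 ± 0.21 (limma, adjusted p = 0.046). Both Ifnar2 and Tlr7 lost the call when any 1 array was left out, as did most genes called on day 7. Their day 7 differences then ran from 0.77 to 0.84 and from 1.13 to 1.51 log2 units. Irf3, which starts interferon transcription, differed by -0.05 ± 0.25 on day 1 and by -0.27 ± 0.25 on day 7 (limma, adjusted p = 0.941 and 0.559). Socs1, an inhibitor of the kinases, differed by -0.18 ± 0.43 and 0.19 ± 0.43 on these days (adjusted p = 0.867 and 0.832), and none of 7 inhibitors was called.

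Of the interferon-induced genes outside the 37, 40 were measured and 39 passed the filter. On day 1, 14 of the 39 were called lower and none higher, where 1.23% and 0.931% of all genes were. The median difference of the 39 was -0.93 log2 units. This list, too, was drawn up with earlier results of these data known, so its count is not independent evidence and its values are given without p-values. Gm4951, a predicted interferon-inducible GTPase, was lower in SWCNT than in PF68 lungs by 2.50 ± 0.20 on the log2 scale. The Schlafen gene Slfn8 was lower by 2.06 ± 0.19. Nlrc5, the activator of MHC class I genes, was lower by 1.84 ± 0.13. The large ubiquitin ligase Rnf213 was lower by 1.45 ± 0.19. Tap1, part of the transporter that supplies peptides to MHC class I, and the immunoproteasome subunits Psmb8 and Psmb9 were also among the 14. Of 4 other interferon regulatory factors, Irf1 was called lower, by 0.95 ± 0.13, a call that was lost when any 1 array was left out.

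On day 7 none of these 39 genes was called, at a median of 0.10. Over all 75 pathway genes in the fit, 15 were called lower on day 1 and none higher, while on day 7 it was 2 higher and none lower. Of all genes, 1.23% were called lower and 0.931% higher on day 1, and 0.78% lower and 1.4% higher on day 7. The pathway count of 15 fell when any 1 array was left out, as did the count over all genes. Each such fit has fewer residual degrees of freedom.

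The lobe was recognisable as lung: all 12 markers of lung epithelium and endothelium lay at or above the array median on all 8 arrays, with a median day 1 difference of -0.01 and none called. Markers of another tissue moved with the day 1 groups, however. Of 10 skeletal muscle markers, 8 were called higher in SWCNT lungs of day 1, at a median of 3.72 log2 units, and their log2 summed level was 6.63 to 6.70 on the SWCNT arrays against 2.52 to 2.76 on the PF68 arrays. Squamous epithelium markers were called higher in 3 of 8 cases, at log2 summed levels of 5.25 to 5.36 in SWCNT lungs and 2.21 to 3.11 in PF68 lungs, with Krt14 below the array median on all arrays. On day 7 no marker of either list was called. Their part in the lower antiviral signals of day 1 was not tested.

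Of blood cell types that respond to interferon, NK cell markers had log2 summed levels of 3.35 to 3.40 on the SWCNT arrays of day 1, against 4.52 to 4.63 on the PF68 arrays, and 1 of 7 was called lower. T cell markers had 2.61 to 2.70 on the SWCNT arrays, against 3.40 to 3.48 on the PF68 arrays, with a median difference of -0.58 and 1 of 7 called lower. For monocyte markers these levels were 5.89 to 5.98 on the SWCNT arrays and 6.36 to 6.44 on the PF68 arrays, with 2 of 7 called lower and Cx3cr1 below the array median on all arrays. Neutrophil markers had 8.43 to 8.44 on the SWCNT arrays, against 8.37 to 8.39, with 1 of 9 called higher and 1 lower. Alveolar macrophage markers overlapped, at 7.26 to 7.36 against 7.19 to 7.30, with 1 of 8 called lower. B cell markers had 2.57 to 2.58, against 2.88 to 2.99, and none of 5 was called. Plasmacytoid dendritic cells are the main source of interferon alpha in many infections. Their 7 markers in the fit gave no call on day 1, at log2 summed levels of 4.33 to 4.37 in SWCNT lungs and 4.05 to 4.36 in PF68 lungs, and Ccr9 and Pacsin1 were below the array median on all arrays. Their median difference was -0.29, in a range from -0.95 (Blnk) to 0.89 (Cox6a2, which striated muscle also expresses). Of the 7, 4 were lower on both SWCNT arrays, 2 were higher on both and 1 overlapped. Lower in this sense were 28.6% of all genes. The part of these cells in the result was not tested.

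RNA quality also differed between the groups, most of all between the days. The 3′ minus 5′ difference of beta-actin probe sets, which grows as RNA is degraded, was 1.31 and 1.36 log2 units on the SWCNT arrays of day 1, against 2.04 and 2.01 on the PF68 arrays. On day 7 it was 2.99 and 2.94 on the SWCNT arrays, against 3.29 and 3.25 on the PF68 arrays. For Gapdh this difference was 0.75 and 0.68 on the SWCNT arrays of day 1, against 1.05 and 1.03 on the PF68 arrays. On day 7 the Gapdh values overlapped, at 2.31 and 2.11 on the SWCNT arrays and 2.52 and 2.29 on the PF68 arrays. The part of RNA quality in the result was not tested. The hybridization spikes, which are added in equal amounts, averaged 4.92 and 4.96 on the SWCNT arrays of day 1, against 4.72 and 4.72 on the PF68 arrays, and 4.78 and 4.80 on the SWCNT arrays of day 7, against 5.36 and 5.27 on the PF68 arrays. Scaling to these spikes shifts every gene alike, by -0.22 log2 units on day 1 and by 0.53 on day 7, where it put the median of all genes at -0.24 and 0.55. The members' median became -1.62 on day 1 and 0.33 on day 7, still below that of all genes on both days. On day 7, 14 members were then called higher and 1 lower, where 42% of all genes were called higher and 0.577% lower.

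**Figure D4:**
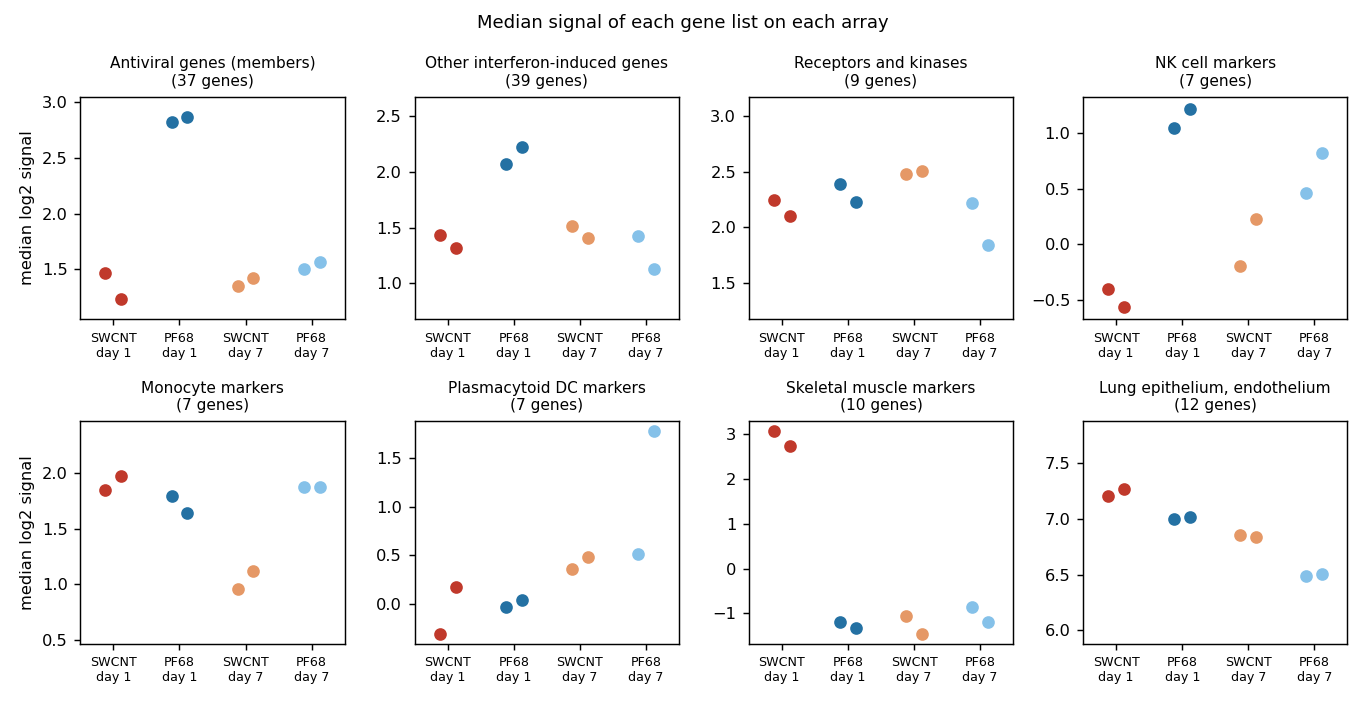
Median log2 signal of 8 gene lists on each array (points), with SWCNT left of PF68 on each day; vertical scales differ between panels. The members and the other interferon-induced genes are highest on the PF68 arrays of day 1, and the skeletal muscle markers are highest on the SWCNT arrays of day 1.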

How the data were processed

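Total RNA of lung was measured in 8 samples, each on 1 single-colour array. The values deposited by the authors were taken to be on a log2 scale. The submitters' processing notes name RMA. The sources used here state neither the log base nor an offset (values ran from -5.88 to 8.31). All arrays held the same sorted values (SD 0), so differences are relative to the other genes of an array.

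Of 45101 probe sets, 64 controls and 8 with a missing value were left out. A probe set was kept if 2 or more of the 8 arrays had it at the array median (-0.63) or higher, and the one with the highest mean over all arrays stood for its gene. Group means were fitted with limma 3.58.1 in R 4.3.3 (lmFit, eBayes; 4 residual and 1.81 prior degrees of freedom), with Benjamini-Hochberg adjustment over 13854 genes, two-sided, at a threshold of 0.05. The ± after a difference is the moderated standard error. The fit was tested on simulated data. Promoters were searched in Python 3.11.15, and figures drawn with matplotlib 3.10.9.

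The members and all gene lists were chosen with earlier results of these data known. Levels on every array of day 1 are given for the member of each role with the largest day 1 difference. They are also given for the 12 members with the largest and the 3 with the smallest such difference. Every member called on day 7 has its levels on the arrays of both days printed. Day 7 levels are printed for only some of the others. Up to 4 called genes of a pathway list are named with their values, beside a preset set of receptors, kinases, interferons and factors. Alternatives covered normalization, filter, probe set, variance model, array weights, replicate numbers, arrays in the fit and, chosen after seeing the data, scaling to 18 spike probe sets.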

Additional observations from a re-analysis of the deposited data

Results flagged for a closer look

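In 7 of the 37 measured members both SWCNT arrays lay below both PF68 arrays on day 1 and above both on day 7, so that the groups' order turned completely between the days. That is 18.9% of the 37 members, all of which were lower on day 1, against 29.1% of all 3960 genes that were lower on day 1 in this sense. The difference between the days was not tested, and the groups of 2 arrays are too small for a check of single arrays. The day 7 difference minus the day 1 difference, in log2 units, was 2.98 for Ifit3, 2.93 for Trim30d, 1.98 for Herc6, 1.94 for Ifih1, 1.77 for Zbp1, 1.65 for Eif2ak2 and 1.22 for Parp9. None of the 7 was called on day 7. Their day 7 differences ran from 0.15 (Parp9) to 1.74 (Trim30d). Eif2ak2 was below the array median on the PF68 arrays of day 7, and Trim30d on all arrays except the PF68 arrays of day 1. The other probe set of Zbp1 had a negative difference on day 7, at -1.15, and so had 1 of the other 2 of Eif2ak2, at -0.91 and about as bright as the chosen one.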

How the results depend on the processing

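With 2 arrays per group, the counts of calls moved with most choices, and the members' day 1 median kept its sign in all of them. Except for the spikes, the share of all genes called in each setting is not given here. These counts therefore describe the settings only. Leaving out 1 array gave day 1 medians of -1.47 to -1.38, day 7 medians of -0.22 to -0.064, 7 to 23 members and 0 to 10 pathway genes lower on day 1, and 0 calls in either direction among members or pathway genes on day 7; such fits have fewer arrays and fewer residual degrees of freedom. The day 7 minus day 1 medians then ran from -1.41 to -1.33 in PF68 lungs and from -0.058 to 0.069 in SWCNT lungs. Leaving out 1 array also turned the sign of 12 small day 7 differences, which then ran as follows: Ddx58 -0.33 to 0.12, Adar -0.093 to 0.042, Ifitm3 -0.024 to 0.017, Dhx58 -0.10 to 0.095, Stat2 -0.26 to 0.48, Ifit1 -0.11 to 0.093, Mx1 -1.36 to 1.05, Usp18 -0.11 to 0.14, Parp14 -0.10 to 0.15, Trim30a -0.51 to 0.093, Mx2 -0.72 to 0.19, Oasl1 -1.09 to 0.26. Without the filter, where more genes enter the fit and the adjustment, 7 pathway genes were lower on day 1. On day 7, 0 members were lower and 0 pathway genes higher. With a filter on all 8 arrays, 26 pathway genes were lower on day 1, 2 members and 4 pathway genes higher and 2 pathway genes lower on day 7, and the day 7 minus day 1 medians were -1.23 in PF68 and 0.17 in SWCNT lungs, over 28 members. The mean of all probe sets gave 1 member lower and 0 pathway genes higher on day 7, and turned the day 7 sign of Zbp1 (-0.38), Rsad2 (0.43) and Rtp4 (0.027). Cyclic loess gave 1 member higher and 1 pathway gene lower on day 7 and turned Usp18 (-0.017) and Parp14 (-0.0034). The trended robust variance gave 1 pathway gene higher and 34 lower on day 1, and on day 7 2 members and 5 pathway genes higher and 6 members and 3 pathway genes lower. Array weights gave 0 members lower and 0 pathway genes higher on day 7. With only the 4 arrays of a day, 10 members and 2 pathway genes were lower on day 1, and 0 members lower and 0 pathway genes higher on day 7. In these settings the cause of the change was not tested.

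The replicate numbers did not pair the arrays: deviations of same-numbered arrays correlated at -0.006 to 0.011. With the replicate number as a block, 5 pathway genes were lower on day 1, and 0 members lower and 0 pathway genes higher on day 7.

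Scaling to the spikes gave 33 pathway genes lower on day 1, and on day 7 14 members and 41 pathway genes higher and 1 member lower. Of all genes, 4.59% were then called lower on day 1, and 42% higher and 0.577% lower on day 7. The member medians became -1.62 on day 1 and 0.33 on day 7, and for day 7 minus day 1 -1.94 in PF68 and 0.17 in SWCNT lungs. Because every gene shifts by 0.53 on day 7, 36.6% of all genes changed sign there, among them 20 members: Ddx58 0.43, Dhx58 0.52, Irf7 0.21, Ifit1 0.52, Ifit2 0.23, Cmpk2 0.080, Adar 0.50, Oas1a 0.29, Oas2 0.037, Oasl1 0.11, Oasl2 0.33, Mx1 0.38, Mx2 0.27, Bst2 0.23, Ifitm3 0.52, Ifi27l2a 0.12, Rtp4 0.23, Xaf1 0.26, Trim30a 0.32 and Epsti1 0.082. Without detection flags, a signal under the array median is dim, not absent.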
